A study of Mus musculus with 4 samples.

Results

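The BMP ligand genes encode the secreted bone morphogenetic proteins and related growth factors, taken here as Bmp2, Bmp3, Bmp4, Bmp5, Bmp6, Bmp7, Bmp8a, Bmp8b, Gdf11 and Gdf15. Members were found by the gene symbol of their probe sets in the platform annotation. Of the 10 genes, 8 had a named probe set, with 13 probe sets in all, out of 17097 genes named in the series. Bmp3 and Gdf15 had no probe set named in that annotation and were not analysed here. RNA from mouse colon adenoma organoids on a C57BL/6 background was hybridised to 4 arrays. In 2 arrays the organoids were labelled Gata6 null/Apc null (VillinCreERT2 Gata6 fl/fl Apc fl/fl), and in the other 2 Apc null (VillinCreERT2 Gata6+/+ Apc fl/fl). The titles give 1 array of each the letter A and 1 the letter B, called batch A and batch B here. Per the labels both groups therefore lacked Apc, the Wnt pathway suppressor, and carried the same inducible Cre, which the Villin promoter drives in intestinal epithelium and not in stroma. The labels give no age, sex or number of mice. All organoids had grown for 7 days in medium with EGF at 50 ng/ml, and the medium as listed in the labels names no added BMP or Noggin. The growth protocol in the labels, shared by all 4 arrays, also lists Rock inhibitor at 10 uM and medium replaced every 2 days.

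BMP ligands are dimeric proteins of the TGF-beta superfamily that are cut from larger precursors by furin-like convertases. They bring type I and type II serine/threonine kinase receptors together, and the type I receptor then phosphorylates SMAD1, SMAD5 and SMAD9, which enter the nucleus with SMAD4. In the intestine much of the ligand comes from the mesenchyme, the signal rises from crypt to surface, and it opposes stem cell self-renewal, while antagonists such as Noggin and Gremlin keep it low at the crypt base. The title of the series names repression of BMP genes by GATA6, an endodermal zinc finger factor, so the comparison of the genotypes asks which ligand genes differ when Gata6 is deleted.

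Each value is an RMA log2 level of a probe set as the authors deposited it, and differences are Gata6 null/Apc null minus Apc null. Array medians lay between 4.91 and 5.04, and the arrays correlated at 0.963 to 0.979. The Gata6 transcript did not fall with the label: its brighter probe set read 9.37 and 9.40 under the Gata6 null/Apc null label (A and B), against 8.89 and 8.61 in the Apc null arrays. Where these probes lie relative to the floxed exons was not known, so they do not check the genotype, and directions below rest on the labels. Genotype cannot be told apart from any other way in which the mice or cultures of each group differed. In RNA from whole cultures, fewer cells of a type and less RNA per cell cannot be told apart either. Epithelial markers were bright in every array, with all 11 above the filter level of 4.45 and a summed level of 14.19 and 14.22 in the Gata6 null/Apc null arrays, against 14.43 and 14.38 in the Apc null arrays (log2 of the sum). All 11 had a lower mean in Gata6 null/Apc null, with differences from -1.57 to -0.01. For 7 of them the groups did not overlap, where 17.3% of all genes tested were lower without overlap. Of 10 fibroblast markers, 6 were below the filter level in every array, among them Col1a1, Col1a2, Col3a1, Lum and Pdgfra. The summed fibroblast level was 9.30 and 9.59 in the Gata6 null/Apc null arrays, against 7.80 and 7.85 in the Apc null arrays. Vim, which encodes the intermediate filament vimentin, rose by 4.13 (SE 0.27, limma adjusted p = 0.0157), and without it the sums were 7.66 and 7.54 in Gata6 null/Apc null, against 7.61 and 7.66 in Apc null. Immune markers summed to 6.98 and 6.79 in Gata6 null/Apc null, against 6.92 and 6.87 in Apc null, and endothelial markers to 6.39 and 6.17 in Gata6 null/Apc null, against 6.39 and 6.23 in Apc null. These sums add dim values: 3 of 6 immune and 2 of 4 endothelial markers were below the filter level in every array. The highest value of a single marker was 5.11 for immune and 4.80 for endothelial.

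Of the 8 ligand genes with a probe set, 6 had a mean over the 4 arrays at or above the filter level, the 40th percentile of the probe sets, and were tested among 11874 genes. All 6 had both group means above that level, so none entered through 1 group alone. Bmp7 rose, Bmp2 and Bmp8b passed with the batch in the fit, in opposite directions, and Bmp4, Bmp6 and Bmp8a did not pass. In the fit with genotype as the single term, 1 of 6 passed a limma adjusted p of 0.05 and was higher, where 0.648% of all genes passed in either direction, 0.522% higher and 0.126% lower. With the batch as a block 3 of 6 passed, 2 higher and 1 lower, where 6.88% of all genes did, 3.91% higher and 2.97% lower. Groups did not overlap for 4 members that were higher and 1 that was lower in the Gata6 null/Apc null arrays, against 14.7% and 17.3% of all genes tested. The absolute log2 difference was 1 or more in 4 of 6 members, against 5.10% of genes. The median difference was 1.08 over the 6 tested members, 0.45 over the 8 measured and -0.03 over all genes tested. The same letters A and B stand in the titles of both genotypes, and pairing the arrays by them as batches is an assumption. Where an adjusted p is printed, its value with the batch block is added if it changes the call. That fit has 1 residual degree of freedom, and no fit on 4 arrays can test whether a genotype difference differs between batches.

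**Figure D1:**
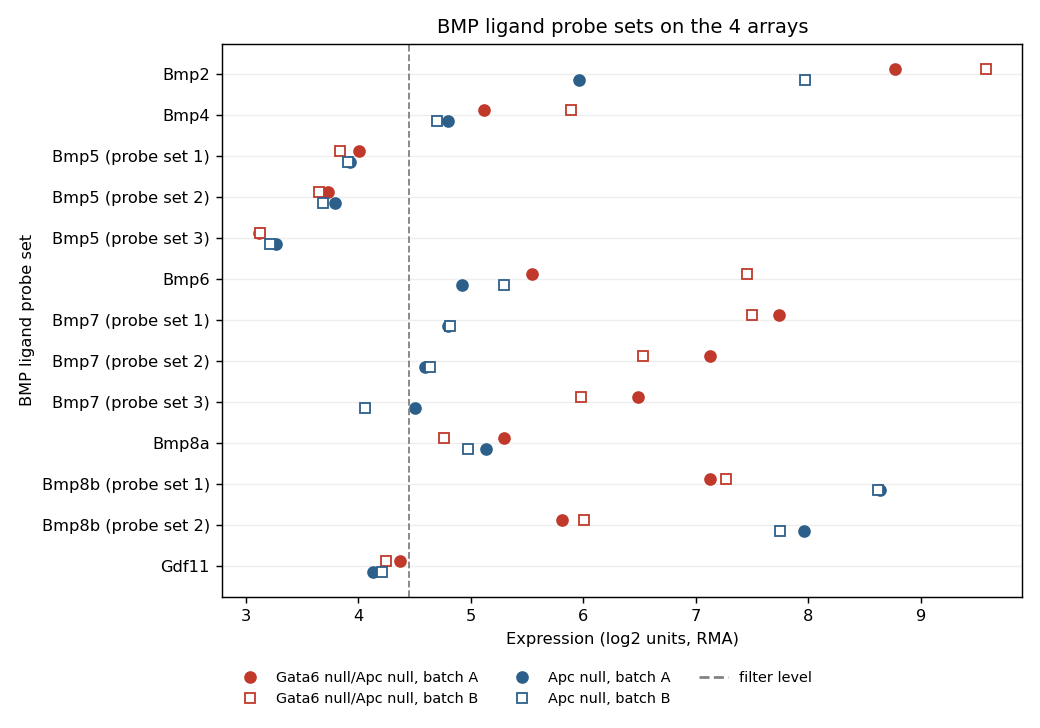
Expression of the 13 BMP ligand probe sets (vertical axis, the brightest of a gene first) on the log2 scale (horizontal axis), with 1 point per array: red for Gata6 null/Apc null, blue for Apc null, circles for batch A and open squares for batch B. Values are to be compared within a row. The 3 Bmp7 rows have both red points right of both blue points, both Bmp8b rows have them left, and Bmp5 and Gdf11 lie left of the dashed filter level of 4.45.

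Bmp7, a ligand of the subfamily that also holds Bmp5, Bmp6 and Bmp8, was the member with the highest difference. Its brightest probe set read 7.74 and 7.50 in the Gata6 null/Apc null arrays (A, then B), against 4.80 and 4.81 in the Apc null arrays. The Apc null arrays were thus nearly identical to each other and lay just above the filter level, so the size of the fold depends on how low a level the array can read. The difference was 2.81 (SE 0.23), a 7.03-fold level, with a limma adjusted p of 0.0253. The second probe set read 7.13 and 6.53 in the Gata6 null/Apc null arrays, against 4.59 and 4.63 in the Apc null arrays, a 4.65-fold level. The third, whose suffix marks probes that can match several transcripts of a gene, read 6.49 and 5.98 in Gata6 null/Apc null, against 4.51 and 4.06 in Apc null. Its Apc null mean of 4.28 was below the filter level, so it was tested only through the level in Gata6 null/Apc null, and its values are a description with no fold. In each of the 3 probe sets the lowest Gata6 null/Apc null array lay more than 1 log2 unit above the highest Apc null array. Tested among 27022 probe sets rather than among genes, the brightest did not pass (limma adjusted p = 0.0537, where 0.200% of probe sets passed), nor did the second (0.124). None of the 9 ligand probe sets tested passed in that fit. Of the 8 with both group means above the filter level, 5 had an unadjusted p under 0.05, where 6.39% of all probe sets did. With the batch as a block the brightest and the second Bmp7 probe sets passed, at adjusted p-values of 0.00167 and 0.00696 from limma, where 4.43% of probe sets did. In that fit 5 of those 8 ligand probe sets passed, 2 of Bmp7, 2 of Bmp8b and that of Bmp2. In limma the call at the gene level was lost when either Apc null array was left out, with an adjusted p of 0.102 for batch A and 0.0895 for batch B, while the difference stayed at 2.81 and 2.82.

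Bmp2, the close relative of Bmp4 and a strong activator of SMAD1 and SMAD5, varied with both genotype and batch. It read 8.77 and 9.58 in the Gata6 null/Apc null arrays (A, then B), against 5.96 and 7.96 in the Apc null arrays. Both Gata6 null/Apc null arrays lay above both Apc null arrays, and within each genotype batch B lay above batch A, by 0.81 in Gata6 null/Apc null and by 2.00 in Apc null. The mean difference was 2.21 (SE 0.73), a 4.62-fold level, at a limma adjusted p of 0.492, and with the batch as a block the SE was 0.28 and the adjusted p was 0.00939. Batch A gave 2.80 and batch B gave 1.61, and leaving out an Apc null array gave 1.21 without batch A and 3.21 without batch B.

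Bmp4, the ligand that intestinal mesenchyme makes in quantity, was dim in these epithelial cultures. It read 5.11 and 5.89 in the Gata6 null/Apc null arrays, against 4.79 and 4.70 in the Apc null arrays. The groups did not overlap, but the difference of 0.75 (SE 0.30) did not pass (limma adjusted p = 0.641, or 0.142 with the batch as a block), with 0.32 in batch A against 1.19 in batch B.

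Bmp6, a ligand known in the liver for inducing hepcidin, stood out in 1 array. It read 5.55 in batch A and 7.45 in batch B of the Gata6 null/Apc null arrays, against 4.92 and 5.29 in the Apc null arrays. The batch B Gata6 null/Apc null array thus lay well above the other 3. The difference was 1.40 (SE 0.65), a 2.63-fold level, and did not pass in limma (adjusted p = 0.790, or 0.0867 with the batch as a block). Without that array it was 0.44, and without the batch A Gata6 null/Apc null array it was 2.35.

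**Figure D2:**
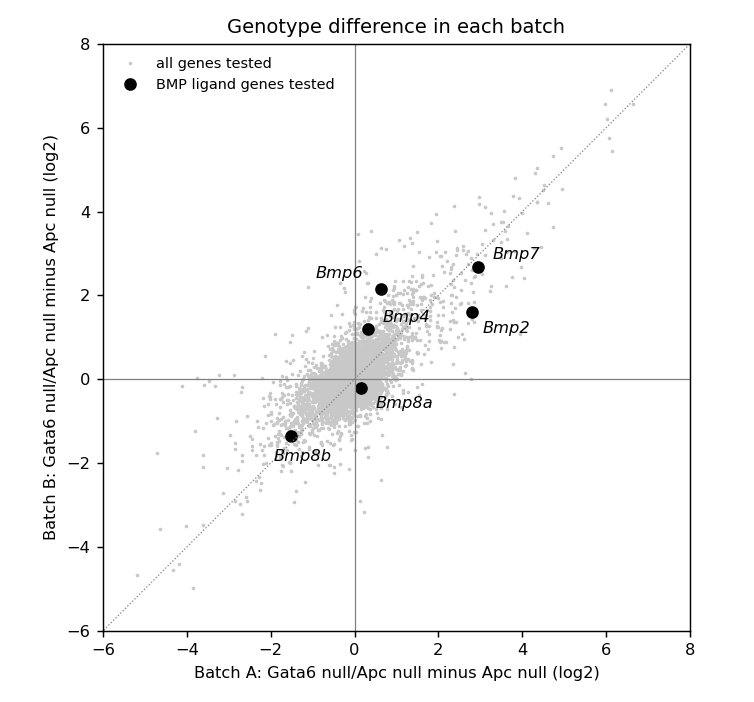
Log2 difference of Gata6 null/Apc null minus Apc null in batch A (horizontal axis) and in batch B (vertical axis), with 1 point per gene tested: grey for all 11874 genes, black for the 6 BMP ligand genes. Bmp7 and Bmp8b lie near the dotted line of equal differences, Bmp2 below it at 2.80 and 1.61, Bmp6 above it at 0.63 and 2.16, and Bmp8a near the origin.

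Bmp8b and Bmp8a are close paralogues that lie near each other on chromosome 4 of the mouse and act in germ cell formation, and Bmp8b also in brown fat. Bmp8b was the member that was lower in the Gata6 null/Apc null arrays, and Bmp8a showed no difference beyond its spread. The RefSeq promoter windows of the pair are shown because the genotypes overlapped at one of these neighbours and not at the other, a difference between genes that was not tested: each gives the 250 bases before the annotated start, on the gene's own strand in GRCm38.p6, chr4:123104911-123105160 (plus strand) for Bmp8b and chr4:123343253-123343502 (minus strand) for Bmp8a. Capitals mark a GATA word, meaning on either strand the letters GATA directly preceded by A or T and directly followed by A or G.
Bmp8b: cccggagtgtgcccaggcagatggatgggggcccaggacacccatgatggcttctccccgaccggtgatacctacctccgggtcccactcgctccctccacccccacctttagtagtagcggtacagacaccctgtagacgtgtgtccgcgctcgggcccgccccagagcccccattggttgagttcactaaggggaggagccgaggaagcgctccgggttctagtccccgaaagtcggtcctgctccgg
Bmp8a: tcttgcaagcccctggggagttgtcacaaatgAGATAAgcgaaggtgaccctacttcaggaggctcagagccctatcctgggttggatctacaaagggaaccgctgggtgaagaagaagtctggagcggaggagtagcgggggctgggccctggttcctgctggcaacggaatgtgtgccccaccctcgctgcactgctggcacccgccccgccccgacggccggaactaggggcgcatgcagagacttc
The Bmp8a window held 1 such word, at position -218 from the start, and the Bmp8b window held 0. Promoter windows were in the table for 7 members, 8 windows in all, with Bmp2, Bmp3 and Bmp7 not analysed here, and 2 held a GATA word (the window of Bmp8a and 1 of a pair for Gdf15, which has no expression value here), against 26.5% of the 32851 windows in the table. The word CTTTGA, the core bound by TCF factors, was searched on both strands and was in 0 of the 8 windows, against 13.8% of all windows. A match is a match of letters and no evidence of binding, and its absence from 250 bases says nothing about more distant sequence.

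The brighter Bmp8b probe set read 7.12 and 7.26 in the Gata6 null/Apc null arrays, against 8.64 and 8.62 in the Apc null arrays. Both Gata6 null/Apc null arrays lay below both Apc null arrays by more than 1 log2 unit, and arrays of a genotype differed by 0.14 or less. The difference was -1.43 (SE 0.22), a level of 0.371 relative to Apc null, which missed the threshold (limma adjusted p = 0.105) and passed once the batch was a block (0.00511). At the other probe set, the Gata6 null/Apc null values were 5.81 and 6.01, against 7.96 and 7.75 in Apc null. This difference was -1.95 (SE 0.25), a level of 0.259, with a limma adjusted p of 0.119 over all probe sets, or 0.00622 with the batch as a block. Bmp8a read 5.30 and 4.76 in the Gata6 null/Apc null arrays, against 5.14 and 4.98 in the Apc null arrays. Its groups overlapped, its differences were 0.16 (batch A) and -0.22 (batch B), and its mean difference was -0.03 (SE 0.23, limma adjusted p = 1.00). Whether the Bmp8b and Bmp8a probes can each bind the other transcript was not tested.

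Bmp5, a skeletal ligand of the Bmp7 subfamily, was dim on every array. Its 3 probe sets read between 3.11 and 4.003 on the 4 arrays, all below the filter level, and their differences lay between -0.12 and 0.00. Gdf11, a relative of myostatin that signals through activin receptors, also lay below the filter level. It read 4.37 and 4.24 in the Gata6 null/Apc null arrays, against 4.13 and 4.21 in the Apc null arrays, a difference of 0.14. With dim probe sets kept in the fit, neither gene passed (limma adjusted p = 1.00 for both). Values this low are compressed by RMA, so a difference in these genes may not have been detectable.

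The members differed unequally between batches. Bmp2 was higher in batch B in both genotypes, and Bmp6 was higher there by 1.90 in Gata6 null/Apc null and by 0.37 in Apc null. Bmp4 was higher in batch B by 0.77 in Gata6 null/Apc null, while its batch difference in Apc null was -0.10. The brightest probe sets of Bmp7 and Bmp8b differed between batches by no more than 0.23 in either genotype. The genotype difference kept its sign in both batches for 5 of 6 tested members, all but Bmp8a, where 63.4% of all genes tested did.

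The genes around the members were read to see whether a whole neighbourhood differed, a step chosen after the members' values were seen. Order along the chromosome came from the RefSeq table of GRCm38.p6. The nearest tested genes before and after Bmp7, Bmp2 and Bmp8b, 12 in all, differed by -2.08 to 1.51, and 0 passed in limma with genotype as the single term (0.648% of all genes did), with 2 at an unadjusted p under 0.05 (7.97% of all genes). The same 2 genes, Plcb1 and Hpcal4, passed with the batch as a block, where 6.88% of all genes did. Hpcal4 was tested only through its level in Apc null, so its values are a description. Without Hpcal4, Plcb1 alone was left in these counts, and the lowest difference was -0.33. Plcb1, a phospholipase C gene that lay beyond Tmx4 after Bmp2, read 5.82 and 6.62 in the Gata6 null/Apc null arrays, against 4.82 and 4.59 in the Apc null arrays. Its difference was 1.51 (SE 0.32, limma adjusted p = 0.219, or 0.0279 with the batch as a block). Tmx4 itself differed by 0.30, and Mcm8 and Crls1, before Bmp2, by -0.31 and -0.13, without passing by either fit. Hpcal4, a neuronal calcium sensor gene between Bmp8b and Bmp8a, read 3.73 and 4.31 in Gata6 null/Apc null, against 6.07 and 6.12 in Apc null. Its difference was -2.08, and the Gata6 null/Apc null arrays were below the filter level. Of 11 RefSeq genes between Bmp8b and Bmp8a, 3 were tested, and the others, Ppie and Pabpc4, differed by -0.32 and -0.36 without passing. The genes beside Bmp7, with Rae1 at -0.20 and Fam209 at 0.03 the closest, stayed between -0.33 and 0.03.

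The genes whose 4 values were most like those of a member were taken as the 3 with the smallest Euclidean distance, after each gene was centred on its own mean, among the genes tested. Over 4 arrays this measure follows genotype and batch alone, so it is a description of pattern. Nearest to Bmp7 were Zbtb7c (distance 0.12), Msrb3 (0.18) and Meis2 (0.20), which encode a zinc finger protein, a methionine sulfoxide reductase and a homeobox factor. Their differences were 2.70, 2.67 and 2.84, and Msrb3 and Meis2 had Apc null means of 4.41 and 4.003, below the filter level. Nearest to Bmp2 were Sema3f (0.34), Nfe2l3 (0.41) and Rasl11b (0.50), which encode a secreted semaphorin, a basic leucine zipper factor and a small GTPase. These shared the low batch A Apc null array: Sema3f read 7.60 and 8.59 in the Gata6 null/Apc null arrays, against 5.19 and 7.21 in the Apc null arrays. Nearest to Bmp8b were Nectin1, Creb3l1 and St6galnac4, all at a distance of 0.13, which encode a cell adhesion protein, a membrane-bound transcription factor and a sialyltransferase. Their differences were -1.38, -1.38 and -1.34.

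**Figure D3:**
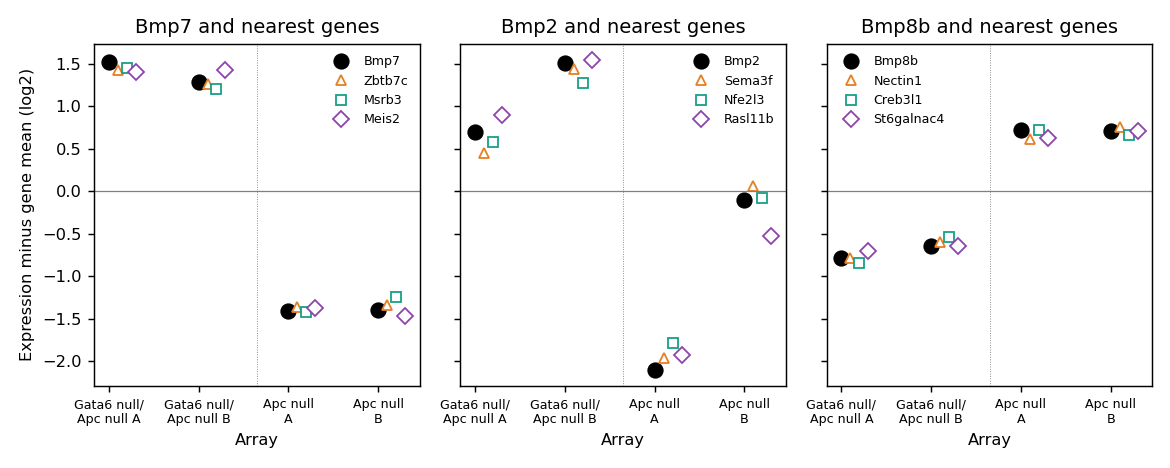
Log2 expression of Bmp7, Bmp2 and Bmp8b (black circles) and of the 3 genes nearest to each (open symbols), each centred on its own mean (vertical axis), on the 4 arrays (horizontal axis, Gata6 null/Apc null left of the dotted line and Apc null right of it). The Bmp7 and Bmp8b patterns split by genotype with little spread, and the Bmp2 pattern has the batch A Apc null array as its lowest point.

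Other genes of the pathway were read from lists that do not overlap with the members. The counts in these lists stand against all genes tested, of which 7.97% had an unadjusted p under 0.05. With the batch as a block 3.91% of all genes tested passed as higher and 2.97% as lower. Among other ligands of the TGF-beta superfamily, 18 of 23 had a probe set and 9 were tested, with a median difference of -0.08. None passed with genotype as the single term, where 0 had an unadjusted p under 0.05, and 1 was higher with the batch as a block. That gene was Tgfb3 (1.11, with SE 0.19 and limma adjusted p = 0.0240 in the block fit and SE 0.89 and adjusted p = 1.00 without the block), singled out after its values were seen. Inhba, the activin A subunit, differed by 1.17 (SE 0.50, limma adjusted p = 0.707) and Lefty1, a Nodal inhibitor, by 0.23 (1.00). Of the enzymes that process ligands or antagonists, 4 of 7 were tested and none passed by either fit, with 1 at an unadjusted p under 0.05. Bmp1, a metalloprotease that cleaves chordin and is no BMP ligand, differed by 0.77 (SE 0.28, limma adjusted p = 0.584), and Furin, the main precursor convertase, by -0.35 (0.957).

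On the receiving side, the tested receptors and co-receptors numbered 8 of 12, and none passed by either fit, with 1 at an unadjusted p under 0.05 and a median of -0.10. Rgmb, a co-receptor, differed by -0.68 (SE 0.26, limma adjusted p = 0.617), and Bmpr2, the BMP type II receptor gene, read 8.72 and 8.66 in the Gata6 null/Apc null arrays, against 8.18 and 8.38 in the Apc null arrays. Bmpr1a, a BMP type I receptor gene named after its values were seen, read 3.54 and 3.57 in Gata6 null/Apc null, against 3.65 and 3.70 in Apc null. These values were below the filter level at the only probe set that the annotation named for it, which alone does not show that the transcript is absent. Of 4 transducing SMADs none passed with genotype as the single term, with 1 at an unadjusted p under 0.05. Smad1 passed with the batch as a block. It read 9.30 and 9.52 in Gata6 null/Apc null, against 8.53 and 8.31 in Apc null, and differed by 0.99 (SE 0.20, limma adjusted p = 0.206, or 0.0155 with the block), while Smad9 differed by 0.36 (0.956). Of 9 antagonists tested, none passed with genotype as the single term and 2 had an unadjusted p under 0.05. Fst, the activin-binding follistatin, passed with the block: it read 8.38 and 7.79 in Gata6 null/Apc null, against 5.12 and 5.57 in Apc null, and differed by 2.74 (SE 0.33, limma adjusted p = 0.0583, or 0.00467 with the block). Nbl1 differed by 0.66 (0.459), and Nog and Grem1 were near or below the filter level on all arrays, with Nog at 4.64 and 4.70 in Gata6 null/Apc null, against 4.40 and 4.49 in Apc null. Both were singled out after their values were seen.

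Genes that BMP signalling is known to induce had, among the 7 pathway lists, the highest median after the ligands, at 0.90 over 13 tested. None passed with genotype as the single term. An unadjusted p under 0.05 was found for 8 of them, where 7.97% of all genes tested had one, and 7 were higher and 0 lower with the batch as a block, against 3.91% and 2.97% of all genes. Bambi, a decoy receptor, read 8.25 and 8.88 in the Gata6 null/Apc null arrays, against 6.87 and 6.92 in the Apc null arrays, and differed by 1.67 (SE 0.30, limma adjusted p = 0.146, or 0.00693 with the block). Dlx3, a homeobox gene, differed by 2.03 (SE 0.39, limma adjusted p = 0.169, or 0.00748 with the block). Id3, an inhibitor of differentiation gene, read 9.50 and 9.62 in Gata6 null/Apc null, against 7.15 and 8.20 in Apc null. Its lowest value was in the batch A Apc null array, as for Bmp2, a likeness singled out after the values were seen. Most of the other tested response genes were also lowest in that array, so the likeness is not particular to Id3. Of 10 stress response genes, listed because Gdf15 is a stress-induced ligand, none passed with genotype as the single term. An unadjusted p under 0.05 was found for 2 and 3 were lower with the block, against 7.97% and 2.97% of all genes tested. Asns, which encodes asparagine synthetase, differed by -0.93 (SE 0.19, limma adjusted p = 0.195, or 0.00606 with the block). Trib3, a pseudokinase gene, differed by -1.70 (SE 0.48, limma adjusted p = 0.387, or 0.00542 with the block).

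**Figure D4:**
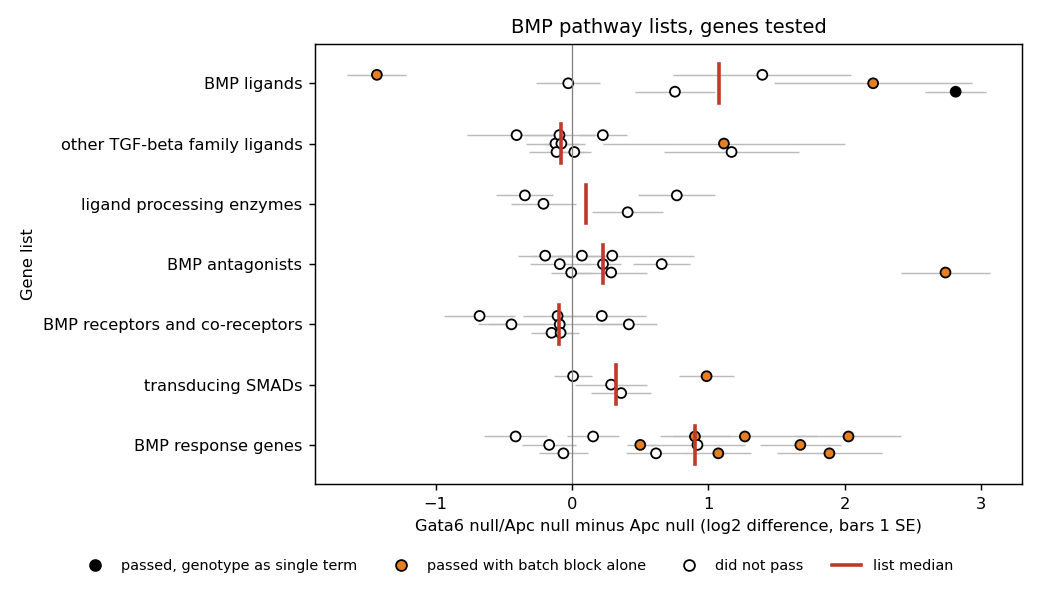
Log2 difference of Gata6 null/Apc null minus Apc null (horizontal axis, bars 1 SE of the limma fit with genotype as the single term) for the tested genes of 7 pathway lists (vertical axis), with red bars at the list medians. The ligand list spans -1.43 to 2.81 with a median of 1.08, the receptors lie between -0.68 and 0.42, and the response genes have a median of 0.90.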

How the data were processed

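Total RNA from 4 organoid cultures was amplified from 25 ng and hybridised to Affymetrix arrays, per the labels' protocols. The authors deposited log2 values for each probe set, made by RMA with affy per the submitters' processing notes. No version or detection call was at hand, and precision is limited by having 4 arrays. RMA equalises the arrays and compresses low values. Of 45141 probe sets, 104 controls were left out. The platform annotation named 1 gene for 28898, several for 551, from which none was named, and none for 15588, and 0 of 28689 symbols checked by Entrez identifier changed. Each gene was read at its brightest probe set, and those whose mean fell below the 40th percentile (4.45) were not tested. Groups came from the titles. The series text calls the arrays biological replicates without naming mice, so p-values may measure the spread between cultures alone.

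The genotype test used limma 3.58.1 under R 4.3.3 (lmFit, eBayes with a mean-variance trend), two-sided, with Benjamini-Hochberg adjustment over all genes or probe sets tested and a threshold of 0.05. Adjusted p-values without another name come from this fit, with 2 residual degrees of freedom. Standard errors are those of the fit. The fit with genotype as the single term was also run on simulated data with independent errors and no batch difference. That run does not cover the batch block or the batch differences of these arrays. The batch letter is the A or B of the sample titles, taken here as a batch that pairs arrays across genotypes. Batch differences of both genotypes correlated at 0.675 across genes. Alternatives were a batch block, each array left out, other filters, median centring, no trend, the mean of all probe sets and no probe sets with a shared-sequence suffix. Named genes were the members, Gata6, list members past the threshold or else the 2 with the smallest p, and the 3 nearest genes to each of Bmp7, Bmp2 and Bmp8b, without predicted and clone names. Genes beside members and 5 others marked in the text (Bmpr1a, Nog, Grem1, Tgfb3 and Id3) fall outside that rule. So do the fibroblast markers named as below the filter level (Col1a1, Col1a2, Col3a1, Lum and Pdgfra). Gata6 differed by 0.64 (limma adjusted p = 0.418, or 0.0392 with the batch as a block). Apc was in that rule too: it differed by -0.10 (adjusted p = 1.00). Members and lists were chosen with earlier results of these data known. Epithelial markers had 0 past the threshold with 2 at an unadjusted p under 0.05 (7.97% of all genes tested), Cdx2 (-1.57, adjusted p = 0.228) and Lgals4 (-0.26, 0.389). With the block 1 was lower, Cdx2 (limma adjusted p = 0.00545), where 2.97% of all genes tested were. Immune and endothelial markers had 0 by either fit and 0 at an unadjusted p under 0.05.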

Additional observations from a re-analysis of the deposited data

How the results depend on the processing

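With the batch letter as a replicate block, 817 genes (464 higher, 353 lower) and 1197 probe sets passed, against 77 (62 higher, 15 lower) and 54 in the fit with genotype alone, and 3 ligand genes passed, against 1. With arrays centred on their medians 128 genes (103 higher, 25 lower) and 120 probe sets passed. Leaving out 1 array gave 33 (batch A Apc null) to 130 genes (batch A Gata6 null/Apc null), 48 for batch B Apc null, 0 to 9 probe sets in limma, and 0 to 1 ligand genes. The probe set count of 0 arose without either Gata6 null/Apc null array, with 1299 and 1386 at an unadjusted p under 0.05. The ligand count of 0 arose without either Apc null array, with 3 at an unadjusted p under 0.05 each time. The median ligand difference was 0.41 to 1.75 with 1 array left out, 0.45 with no filter, which adds Bmp5 and Gdf11, and 1.80 with the filter at the 60th percentile, which drops Bmp4 and Bmp8a. Bmp8a changed sign, at 0.24 without the batch B Gata6 null/Apc null array and 0.05 with batch A Apc null left out, within a range of -0.30 to 0.24. Of 64 member values under the alternatives, 58 kept sign and call, 2 were these of Bmp8a, 2 gained the call with the block (Bmp2 and Bmp8b), and 2 lost it (Bmp7 without either Apc null array). The cause was not tested.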
